A study of Homo sapiens with 26 samples.

Results

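In the glioblastoma line T98G, 837 short exons stand alone in 3 respects. Each is under 500 bp wide, none shares a base with a small RNA target exon of the leukaemia line K562 or of the second glioblastoma line U87MG, and each is the only T98G target exon whose row opens with its gene symbol. They are 837 of the 2573 exons that the authors listed as EZH2-associated small RNA targets in T98G, and they carry 837 of the 1982 gene symbols of that list. Of the 2573 exons, 1864 were under 500 bp, 1435 of these were found in T98G alone, and 837 of these were the single exon of their symbol. Rows can join several symbols, and 830 exons remain if every joined symbol has to be in a single row. Most of the genes have many annotated exons, and "single" refers to the number of exons called, not to the structure of the gene. Width, the absence from the other lines and the number of called exons chose the members, so they are given here as description only. The members were chosen by these values and by no other.

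The series set out to find RNAs bound by EZH2, and artifacts from misprimed reverse transcription are the subject of its title. Small RNA was sequenced from EZH2 immunoprecipitates, IgG2a immunoprecipitates and input without antibody, with 2 libraries of each kind in T98G and in U87MG and 1 of each kind in K562. Fragmented long RNA of the same 3 kinds was sequenced from T98G with 2 libraries of each kind, EZH2 iCLIP (sequencing of RNA crosslinked to the protein) from T98G with 1 library, and U87MG RNA after siRNA against EZH2 or GFP with 2 libraries per arm. All groups are immortalized cell lines, the immunoprecipitated cells carry no named treatment, and the lists hold regions without expression levels, so the line labels could not be checked against marker genes. No value per library was analysed: read depth is unknown, nothing below has a replicate error, and no test between groups was possible. Ranges after a percentage are 95% Wilson intervals and ranges after a difference of percentages are 95% Newcombe intervals. Both cover counting error over exons or genes, which are not replicates of a condition.

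EZH2 is the catalytic subunit of Polycomb repressive complex 2 (PRC2), which methylates lysine 27 of histone H3 and keeps developmental genes silent, and it is often highly expressed in glioblastoma. PRC2 binds many RNAs in cells, mostly nascent transcripts, with little sequence preference beyond a liking for G-rich stretches, so immunoprecipitates must be set against IgG and input. In a small RNA library an adapter is ligated to the 3′ end of the RNA, and reverse transcription starts from a primer paired with it. If the primer anneals inside a longer RNA, at bases like those of the adapter, the read appears to end there although no RNA end existed.

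The T98G list gives each exon a signed distance that places a read peak in it, and the peak middle lies on a whole base boundary in 834 of the 837 exons. The sequences that follow show 20 bases before and 30 bases after that middle, 5′ to 3′ on the RNA strand, from the GRCh37 genome. The first 7 carry the longest match searched for, 7 bases, to the start of the kit's 3′ adapter (AGATCGG), within 11 to 15 bases downstream of the peak middle. Capitals mark the match. All 7 windows lie within coding exons.
AMPD2, exon 16 of 18, chr1:110172858-110172907, plus strand: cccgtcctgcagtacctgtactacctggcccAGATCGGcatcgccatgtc
USP45, exon 11 of 18, chr6:99914589-99914638, minus strand: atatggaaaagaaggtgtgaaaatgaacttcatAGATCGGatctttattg
BICC1, exon 3 of 21, chr10:60461850-60461899, plus strand: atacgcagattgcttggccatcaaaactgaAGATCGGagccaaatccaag
PLEKHA5, exon 12 of 32, chr12:19436575-19436624, plus strand: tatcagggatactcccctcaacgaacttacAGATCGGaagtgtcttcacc
GCN1L1, exon 37 of 58, chr12:120585989-120586038, minus strand: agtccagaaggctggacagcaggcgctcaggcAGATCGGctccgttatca
STAT3, exon 8 of 24, chr17:40489455-40489504, minus strand: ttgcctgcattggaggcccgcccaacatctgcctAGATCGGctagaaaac
TBC1D16, exon 8 of 12, chr17:77922708-77922757, minus strand: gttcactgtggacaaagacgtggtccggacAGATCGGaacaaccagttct

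The genes of these exons have little in common by function. AMPD2 deaminates AMP, USP45 is a deubiquitinase and BICC1 binds RNA. GCN1L1 helps to sense stalled ribosomes, STAT3 is the transcription factor of cytokine signalling and TBC1D16 switches off Rab GTPases. For contrast, the next windows show a match of 4 bases in VPS13D (a lipid transfer protein) and PHACTR4 (a regulator of actin and phosphatase), and no match, not even of the first base, at any of the 5 starts in IFFO2, HECTD3 (a ubiquitin ligase) and MAST2 (a kinase). These exons come first in genome order, for a longest match of exactly 4 bases and of 0 bases, among those whose 50 bases are all coding.
VPS13D, exon 59 of 70, chr1:12445380-12445429, plus strand: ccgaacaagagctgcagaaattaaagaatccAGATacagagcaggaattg
PHACTR4, exon 9 of 14, chr1:28807064-28807113, plus strand: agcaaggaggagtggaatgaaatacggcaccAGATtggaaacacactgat
IFFO2, exon 6 of 9, chr1:19238516-19238565, minus strand: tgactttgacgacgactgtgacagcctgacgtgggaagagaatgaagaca
HECTD3, exon 5 of 21, chr1:45475258-45475307, minus strand: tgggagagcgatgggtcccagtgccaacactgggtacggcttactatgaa
MAST2, exon 27 of 29, chr1:46499501-46499550, plus strand: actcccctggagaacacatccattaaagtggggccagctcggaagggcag

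AGAT, the first 4 adapter bases, started 11 to 15 bases downstream of the peak middle in 209 of 834 exons (25.1%, 22.2 to 28.1). The share over the whole T98G list was 25.8%, so the members lay close to their background. In the same exons a window of equal length 20 bases further downstream held AGAT in 37 (4.44%, 3.24 to 6.06), and the opposite strand of the near window in 23 (2.76%, 1.84 to 4.10). Over all windows of 5 starts inside the 837 exons, AGAT was found in 5632 of 148538 (3.79%). The intervals of the near window and of the control window do not overlap. The control share was lower in the T98G-only exons of genes with several called exons (13 of 596, 2.18%, 1.28 to 3.70), and 10 of the 37 members counted there are exons outside coding sequence. The motif is common over a whole exon, where 612 of 837 exons (73.1%) held it somewhere, so its place and not its presence sets these exons apart from their surroundings. The motif, the window, and the sign and strand of the distance were taken from earlier results on the same list, so the peak placement was settled in part by the motif it is used to measure. The distance was read in genome coordinates. Read along the RNA strand, as first planned, it gave 15.2%, and read with the other sign 4.08%.

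The onset was sharp. AGAT started at 10 bases in 8 exons (0.959%), at 11 bases in 61 (7.31%) and at 12 bases in 65 (7.79%), the highest share of any position. Later starts were rarer: among the 209 exons the first AGAT of the window began at 13 bases in 30, at 14 in 22 and at 15 in 31. Over 60 flanking positions (-40 to -11 and 31 to 60) the mean share was 0.610% and the highest 1.68%. The profile of AGAT starts shows the same step at 11 bases in the short T98G-only exons of genes with several called exons (596 peaks) and in the short exons shared with K562 or U87MG (428 peaks).

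**Figure D1:**
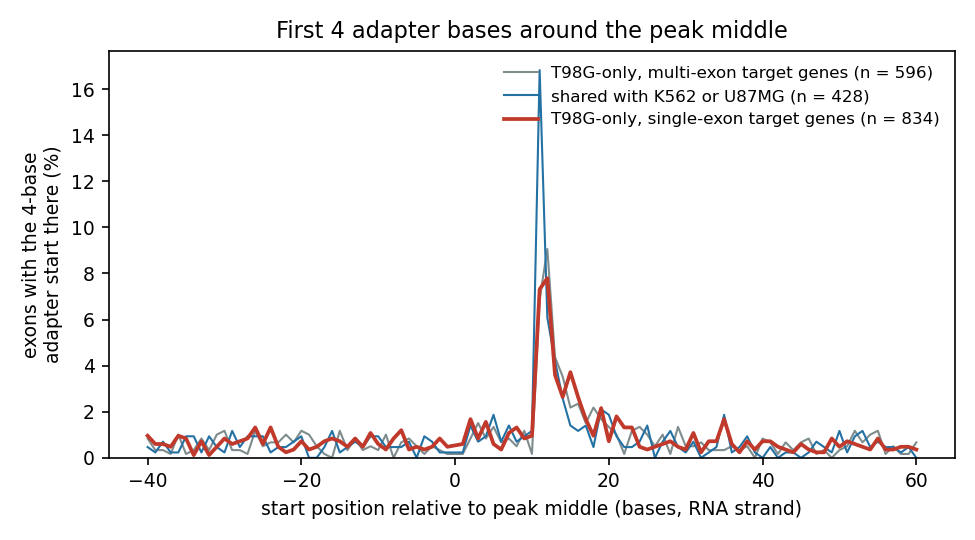
Share of exons in which the first 4 adapter bases start at each position (bases from the peak middle, RNA strand), for the single-exon target genes (red), the T98G-only exons of genes with several called exons (grey) and exons shared with K562 or U87MG (blue). The red line steps from 0.959% at 10 bases to 7.31% at 11 and 7.79% at 12, while the blue line reaches 16.8% at 11.

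The place of the match differed from that in shared exons. Of the members with AGAT in the window, 61 of 209 (29.2%, 23.4 to 35.7) had it at 11 bases. Among shared exons this was 72 of 133 (54.1%, 45.7 to 62.4), a difference of -24.9 percentage points (-35.0 to -14.3). Among T98G-only exons of genes with several called exons it was 41 of 155 (26.5%), a difference of 2.73 points whose interval (-6.67 to 11.8) includes 0. For the window as a whole the members held AGAT less often than shared exons (133 of 428, 31.1%) (difference -6.01 points, -11.4 to -0.824). That interval included 0 for starts from 9 to 17 bases (-10.0 to 0.983), for AGATC (-8.57 to 0.106) and for exons under 300 bp (-10.6 to 0.685). The difference from T98G-only exons of genes with several called exons (155 of 596, 26.0%) was -0.947 points (-5.57 to 3.59), which includes 0. Shared exons stood above the members at 11 bases (16.8% against 7.31%) and not at 12 bases (6.07% against 7.79%).

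The longer the match, the further the near window stood above the control window. AGA was found in 360 exons (43.2%) against 125 in the control window, a ratio of 2.88. AGAT gave 209 against 37 (5.65-fold), AGATC 116 (13.9%) against 5 (23.2-fold) and AGATCG 45 (5.40%) against 1 (45.0-fold, resting on a single control exon). AGATCGG was found in 19 exons (2.28%, 1.46 to 3.53) and in 0 of 834 control windows, which allows a share of up to 0.360%. Both comparison groups had it as well, with 6 of 596 (1.01%, 0.462 to 2.18) and 13 of 428 (3.04%, 1.78 to 5.13), and these intervals overlap that of the members. Where AGAT was present, the next base was the adapter's C in 116 of 209 exons (55.5%, 48.7 to 62.1), against a share of C of 20.6% at positions 31 to 60. G followed in 65, T in 17 and A in 11. The sixth base was the adapter's G in 90 (43.1%, 36.5 to 49.8) and the seventh was G in 69 (33.0%, 27.0 to 39.6), against 24.9% in the flank. These 2 bases fall at positions 16 to 21, where the G share over all 834 members was higher, from 30.9% to 37.8%. The share at the seventh base lay within that local range. Agreement with the adapter thus fell with distance from its start.

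**Figure D2:**
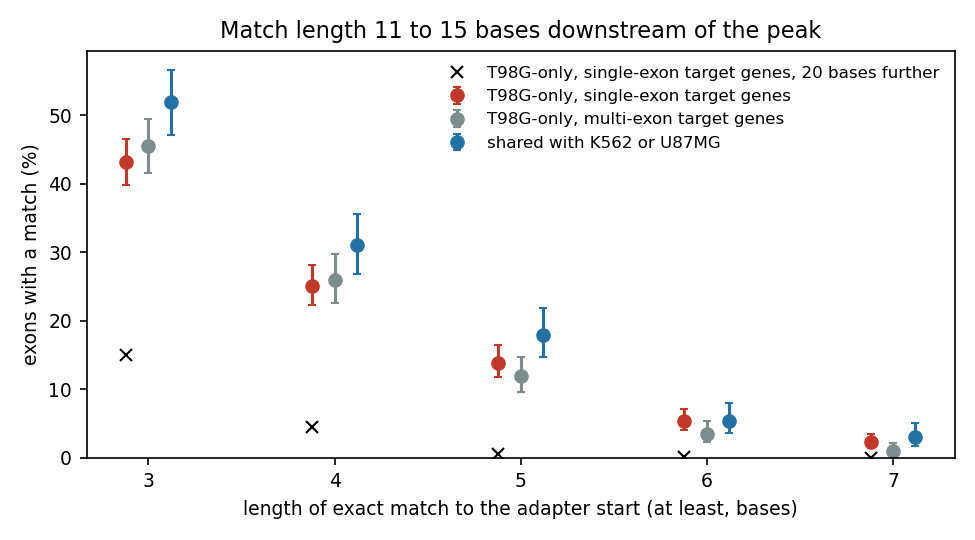
Share of exons (%) with an exact match of at least 3 to 7 bases to the adapter start, beginning 11 to 15 bases downstream of the peak middle, with 95% Wilson intervals. Red, grey and blue points are the 3 exon groups, crosses the control window of the single-exon target genes. The red points fall from 43.2% at 3 bases to 2.28% at 7, and the crosses from 15.0% to 0.

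The 19 exons with the 7-base match lie on many chromosomes. Besides the 7 shown above, PLOD1 (which hydroxylates lysines of collagen), HYI (an isomerase), KDM4A (a histone H3 demethylase), TSN (the RNA-binding translin), CYP20A1 (a cytochrome P450), ULK4 (a kinase-like protein), CAST (calpastatin, the calpain inhibitor) and PDSS2 (coenzyme Q synthesis) held it, as did MCM4, DAPK1, CASC3 and TSPO. In HYI and CAST the peak middle lies past the exon's 3′ end, so the matched bases are intronic in the genome. In KDM4A the exon is the first of a short transcript (chromosome 1, 44156261 to 44156720). The other 26 exons whose longest match was 6 bases include those of SERBP1, PAICS, PPIB, HNRNPL, SF3A1 and PRPF31; these names, and the last 4 of the 7-base set, were chosen after their values were seen.

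Around the match the RNA is rich in purines, with or without AGAT, and this is not particular to the members. At 20 bases the purine share was 73.3% in members and 77.8% in shared exons. It was 76.2% in T98G-only exons of genes with several called exons. The values below are for members. Over positions 16 to 25 the mean purine content was 69.0% ± 15.5 (SD over 834 exons), against 54.0% ± 16.8 at positions 1 to 10 and 53.4% ± 18.6 at positions 41 to 50. Exons with AGAT had 67.6% ± 15.6 (n = 209) and exons without it 69.5% ± 15.5 (n = 625) at positions 16 to 25, a gap far smaller than the spread among exons. AGAT itself can reach into these positions in the first group. At least 8 purines in 10 bases were found in 301 exons (36.1%) at positions 16 to 25 and in 103 (12.4%) at positions 41 to 50. By single position the purine share in exons without AGAT was 50.7% at 10 bases, 67.7% at 12 and 74.6% at 21, while the 60 flanking positions averaged 51.2% over all members (45.6% to 56.7%). Purine content was thus high downstream of the peak whether or not AGAT was present. The searched adapter start AGATCGG is itself mostly purine, and exons without AGAT can match part of it. In 151 exons the longest match was AGA, which is all purine. How far adapter likeness bears on the purine content, or purine content on the AGAT share, was not tested.

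**Figure D3:**
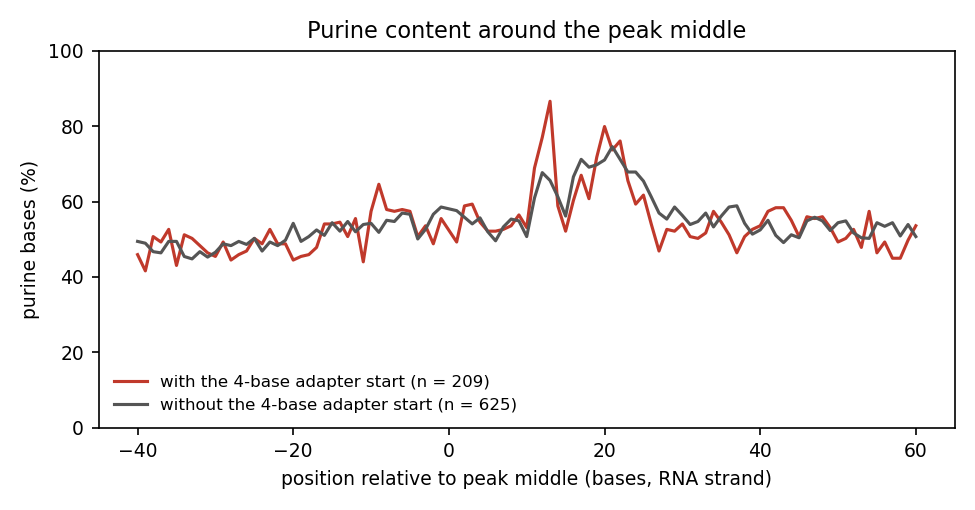
Purine bases (%) at each position from the peak middle (bases, RNA strand) in the 209 exons with AGAT in the window (red) and the 625 without it (grey). Both lines are high near 12 to 13 and near 20 to 21 bases with a dip at 15 (52.2% red, 56.2% grey), and the grey line, whose exons have no AGAT start at 11 to 15, reaches 74.6% at 21.

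Within the 834 exons the AGAT share was higher where the window lay inside the exon. Where all of the window lay inside the exon, 203 of 746 exons held AGAT (27.2%, 24.1 to 30.5). It was 2 of 49 (4.08%, 1.13 to 13.7) where the window crossed the exon's 3′ end, and 4 of 39 (10.3%, 4.06 to 23.6) where it lay past that end. Both latter intervals lie below that of the inside windows, but they rest on few exons. The control window held AGAT in 34 of the 746, 1 of the 49 and 2 of the 39. Sequence past an exon end was read from the genome and not from the spliced RNA. Exons in coding sequence had AGAT in 194 of 753 (25.8%) with 27 in the control window, and the others in 15 of 81 (18.5%, 11.6 to 28.3) with 10 in the control window. In the 37 pseudogene exons the near and the control window were nearly equal, with 7 and 6.

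GC content, width and strand made little difference to the AGAT share of the near window, while the control window varied. The 278 exons of lowest GC content held AGAT in 26.6%, the middle 278 in 24.1% and the 278 of highest GC in 24.5%, and the intervals of the 3 groups overlap. Ordered by width, from the narrowest, the shares were 27.7%, 22.7% and 24.8%. Plus and minus strand exons had AGAT in 26.6% and 23.6% of near windows and in 3.59% and 5.29% of control windows. Exons with and without AGAT had median widths of 145 and 152 bp and median GC contents of 45.0% and 45.5%. Of the 33 exons whose gene is in the K562 or U87MG list through another exon, 11 held AGAT (33.3%, 19.8 to 50.4), against 198 of the 801 others (24.7%, 21.9 to 27.8).

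**Figure D4:**
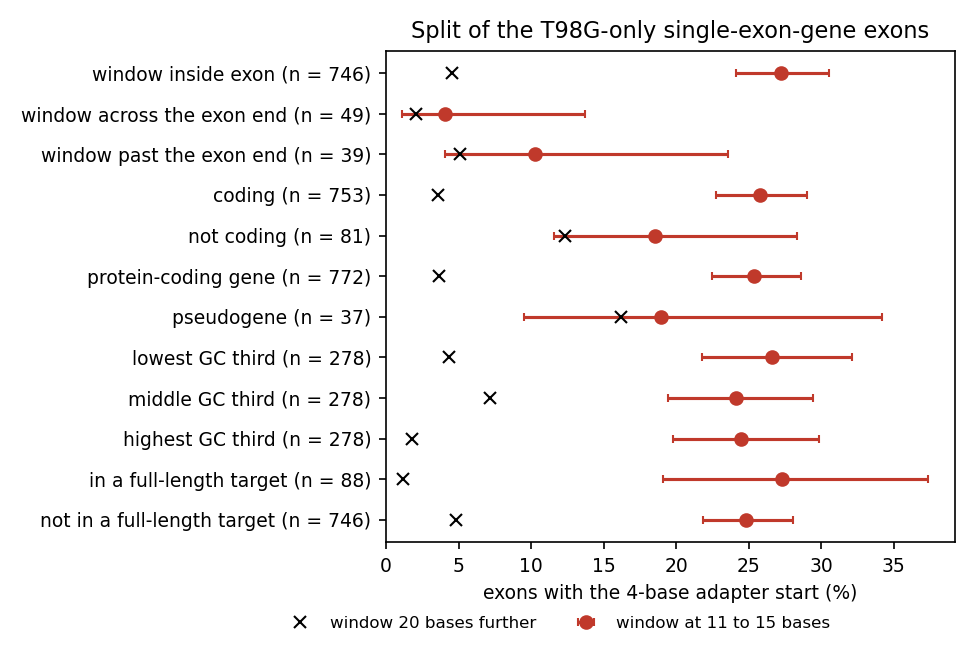
Share of exons (%) with the first 4 adapter bases 11 to 15 bases downstream of the peak middle in subsets of the single-exon target genes (red points, 95% Wilson intervals), with the window 20 bases further as crosses. Points stand near 25% in most subsets and lower where the window crosses (4.08%) or passes (10.3%) the exon end, and in pseudogenes the cross at 16.2% lies beside the point at 18.9%. Some pseudogene exons are near copies of each other, and each copy is counted.

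Some members are near copies of each other, and their reads and calls may not be separable. Comparing the 50-base windows with at most 5 mismatches gave 11 groups with 33 members, of which 15 are pseudogene exons. The largest group has 8 exons and includes PMS2P2, PMS2P3, PMS2P4, PMS2P5 and PMS2P10, pseudogenes of the mismatch repair gene PMS2. CDK11A and CDK11B, OCLN and a pseudogene copy, and the Rab regulators TBC1D3, TBC1D3G and TBC1D3H form others. Counting each group once left 812 windows, of which 202 held AGAT (24.9%, 22.0 to 28.0). The control window was not recounted in this way. CUL7 and CUL9, scaffolds of cullin ubiquitin ligases, show how far such a pair is alike: both exons are 91 bp, the peak middle lies at the 5′ edge of both, and both hold a 6-base match at 15 bases. The bases shown before the peak middle lie outside the listed exon in both.
CUL7, exon 11 of 26, chr6:43014311-43014360, minus strand: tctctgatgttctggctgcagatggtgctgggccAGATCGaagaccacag
CUL9, exon 15 of 41, chr6:43168153-43168202, plus strand: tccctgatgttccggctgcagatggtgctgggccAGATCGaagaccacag

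The members were mostly ordinary internal coding exons. At least 1 base was coding on the same strand in 755 of 837 (90.2%, 88.0 to 92.0), against 89.7% over all T98G rows. A further 15 were untranslated, 66 lay in noncoding transcripts and 1 matched no annotated exon. The exon was identical to an annotated one in 780 (93.2%), and 670 (80.0%, 77.2 to 82.6) were internal exons of their transcript. Over all T98G rows these shares were 86.5% and 68.6%. T98G exons of 500 bp or more were internal in only 28.9%, so the width limit of the rule bears on this measure. The T98G-only exons of genes with several called exons were internal in 87.1% and the shared exons in 86.2%, and both differences exclude 0 (-7.08 points, -10.8 to -3.19, and -6.20 points, -10.3 to -1.79). There were 93 first exons (11.1%, against 9.02% of all T98G rows) and 63 last exons (7.53%, against 18.15%). The sole exon of a transcript was found in 10 (1.19%, against 4.08%). Of 552 internal exons that were wholly coding, 214 (38.8%, 34.8 to 42.9) had a width divisible by 3, against 39.0% of such exons over the whole T98G list.

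Most members lay in protein-coding genes (92.5%, against 91.7% of all T98G rows). Of the members, 774 lay in protein-coding genes, 38 in pseudogenes (4.54%, 3.33 to 6.17), 20 in long noncoding RNA genes and 3 in snoRNA genes. The pseudogene share over all T98G rows was 5.83%, within the interval of the members. It was 2.17% in T98G-only exons of genes with several called exons (difference 2.37 points, 0.428 to 4.23) and 3.26% in shared exons (difference 1.28 points, -1.18 to 3.37). Only 5 members (0.597%, 0.255 to 1.39) overlap an annotated small RNA gene on their strand, against 0.350% of all T98G rows. SNORA49, SNORD124 and SNORD12B are snoRNAs, which guide chemical modification of other RNAs, while MIR5004 and hsa-mir-5572.1 are rows named for miRNA genes inside longer coding exons. None of the 5 had AGAT in the window.

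Width ran from 25 bp to 499 bp with a median of 151 bp (quartiles 109 and 222). Among the narrowest were AGK (33 bp, a mitochondrial lipid kinase) and RPL35A (43 bp, a ribosomal protein), and the widest were CPT1B (499 bp, fatty acid import into mitochondria), DAPK1 (496 bp, a death-associated kinase) and KIAA1429 (492 bp, an RNA methylation factor). Just outside the limit were ATG16L1 and SUPV3L1 at 500 bp and BTF3P10 at 501 bp. Median GC content was 45.3% (quartiles 40.0 and 52.1), and it ran from 26.3% in CLK4 to 76.5% in the first exon of EGFR. In T98G-only exons of genes with several called exons the median was 43.8%. Host transcripts had a median of 14 exons, against 24 in the genes with several called exons and 22 in those of shared exons, and a median length of 3742 bases against 6174 and 5674. A gene with more exons has more chances of a second call, so the rule itself bears on these 2 measures.

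The peaks lay along the whole exon. The peak middle was in the 5′ part of the exon, nearer its 5′ end, in 404 members (48.3%, 44.9 to 51.7) and nearer its 3′ end in 427 (51.0%, 47.6 to 54.4). The median distance to the 3′ end was 69 bases. It lay past the 3′ end in 30 members (3.58%, 2.52 to 5.07) and past the 5′ end in 31 (3.70%, 2.62 to 5.21). Among shared exons only 3 of 429 (0.699%, 0.238 to 2.04) had it past the 3′ end, below the interval of the members. In T98G-only exons of genes with several called exons 13 of 598 did (2.17%, 1.27 to 3.68), an interval that overlaps that of the members. Over all T98G rows the share was 1.87%. For the 5′ end the shares were 1.63% in shared exons, 2.34% in genes with several called exons and 2.14% over all rows. None of the 837 members touched a retained intron of U87MG (up to 0.358% allowed), where 0.972% of all T98G rows did. These introns border U87MG exons, which the rule leaves out.

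The T98G full-length target list, a separate list of gene bodies that is named under the iCLIP sample, covered few of these genes. A full-length target held 88 members (10.5%, 8.61 to 12.8) and 12.2% of all T98G rows. The share was 17.5% (14.2 to 21.4) in shared exons and 14.9% (12.3 to 18.0) in T98G-only exons of genes with several called exons. Both differences exclude 0 (-6.97 points, -11.3 to -2.97, and -4.37 points, -7.99 to -0.902). The 88 exons included those of CHD3 and KDM5C (chromatin enzymes), COL6A3 and COL18A1 (collagens), JAG1 (a Notch ligand), ATP2A2 (the calcium pump of the endoplasmic reticulum) and HNRNPL (a splicing regulator); COL18A1 and HNRNPL were chosen after their values were seen. AGAT in the window was found in 24 of the 88 (27.3%, 19.1 to 37.4) and in 185 of 746 outside a full-length target (24.8%, 21.8 to 28.0), and these intervals overlap.

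Exons in full-length targets stood apart in GC content. Their median GC was 55.1% (quartiles 50.7 and 60.2) against 44.3% (39.5 and 50.6) for members outside, so the middle ranges of the 2 groups do not overlap. Shared exons had 51.3% against 43.1%, and T98G-only exons of genes with several called exons 47.3% against 43.2%. The full-length members sat in transcripts with more exons (median 20 against 13) but a shorter genomic span (median 24357 against 47371 bp), and 87 of the 88 were coding. How far GC content bears on either call was not tested.

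The knockdown table lists U87MG genes that differed between siRNA against EZH2 and siRNA against GFP, as significant by the authors. It comes from another line than the exons and, as analysed here, holds no row for EZH2 itself, so depletion was not checked. For 1 of the 2 siEZH2 libraries the treatment is labelled EZH3, against EZH2 in the title, which was followed. Of the 837 member genes, 75 (8.96%, 7.21 to 11.1) were in the authors' deposited table, against 9.94% of all T98G target genes. Of these, 25 were higher under siEZH2 in the authors' deposited table and 50 were lower (33.3% higher, 23.7 to 44.6), where 49.3% of all rows were higher. Among genes of the authors' deposited table in no T98G row, 610 of 1144 were higher (53.3%), and the members differed from them by -20.0 points (-30.0 to -8.37). Of the other T98G target genes, 25 of 122 were higher in the authors' deposited table (20.5%), a difference of 12.8 points with an interval of 0.319 to 25.7. Member genes thus lay between these groups.

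In the authors' deposited table ITGA6, an integrin subunit that binds laminin and marks glioblastoma stem cells, had a log2 fold change of 1.75. GPSM2, which orients the mitotic spindle, had 1.42, BAIAP2L1, an actin regulator, 1.30, KIF20B, a kinesin of cytokinesis, 1.28 and CIT, the citron kinase, 1.20 in the authors' deposited table. ITGA4, another integrin subunit, had 1.16, NET1, an activator of RhoA, 1.13 and CTSC, a lysosomal protease, 1.11 in the same authors' deposited table. Of these 8 only NET1 had AGAT in its window, with a 5-base match. The exons of ITGA6 (chromosome 2, 173355949 to 173356059) and GPSM2 (chromosome 1, 109445748 to 109445856) are both coding.

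The lowest values were smaller in size. In the authors' deposited table CYP4F11, a fatty acid hydroxylase, had a log2 fold change of -1.33, HIPK3, a nuclear kinase, -1.31 and STXBP5, a regulator of vesicle fusion, -1.20. TTC18 followed with -1.07, BLZF1, a Golgi protein, with -1.02, AAAS, a nuclear pore protein, with -1.01, SEZ6L2 with -0.99 and HIPK2, a kinase of the same family as HIPK3, with -0.95 in the authors' deposited table. STXBP5 and SEZ6L2 held a 5-base match at their peaks and the other 6 held none of 4 bases or more. Past an absolute log2 fold change of 1, the authors' deposited table had 10 members higher and 6 lower (62.5% higher, 38.6 to 81.5). All genes of the authors' deposited table shifted likewise at that limit, with 345 of 467 higher (73.9%). Over the 75 genes the authors' deposited table had a median log2 value of -0.64, against -0.47 over all its genes. The 50 lower genes had host transcripts with a median of 19 exons and 6714 bases, the 25 higher ones 8 exons and 3545 bases. AGAT was in the window of 11 of the 50 and 5 of the 25.

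The member genes that are both full-length targets and in the knockdown table were all lower. Full-length targets outside the members were not counted, so this cannot be set against full-length targets in general. Of the T98G target genes other than members, 97 of 122 were lower in the authors' deposited table. There were 10 of them, 0 higher (0 to 27.8% by the Wilson interval), with a median of -0.84 (log2) in the authors' deposited table. Members outside a full-length target were higher in 25 of 65 (38.5%, 27.6 to 50.6), a difference of -38.5 points (-50.6 to -8.66) in the authors' deposited table. In the authors' deposited table AAAS had -1.01, SEZ6L2 -0.99, HDAC7 (a histone deacetylase) -0.93, FAT1 (a giant cadherin) -0.87 and GCN1L1 -0.84. Further ones in the authors' deposited table were CTSF (a lysosomal protease) at -0.83, P4HB (protein disulfide isomerase) at -0.68, VPS13D at -0.64 and EIF3B (a subunit of translation initiation factor eIF3) at -0.52. The windows of VPS13D, GCN1L1 and SEZ6L2 held AGAT; those of FAT1 and EIF3B did not, and their sequences are given with that of SEZ6L2.
SEZ6L2, exon 4 of 18, chr16:29907114-29907163, minus strand: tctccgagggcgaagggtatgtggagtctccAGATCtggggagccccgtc
FAT1, exon 24 of 27, chr4:187518866-187518915, minus strand: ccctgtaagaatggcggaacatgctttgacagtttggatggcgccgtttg
EIF3B, exon 10 of 19, chr7:2409233-2409282, plus strand: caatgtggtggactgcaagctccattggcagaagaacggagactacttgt

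**Figure D5:**
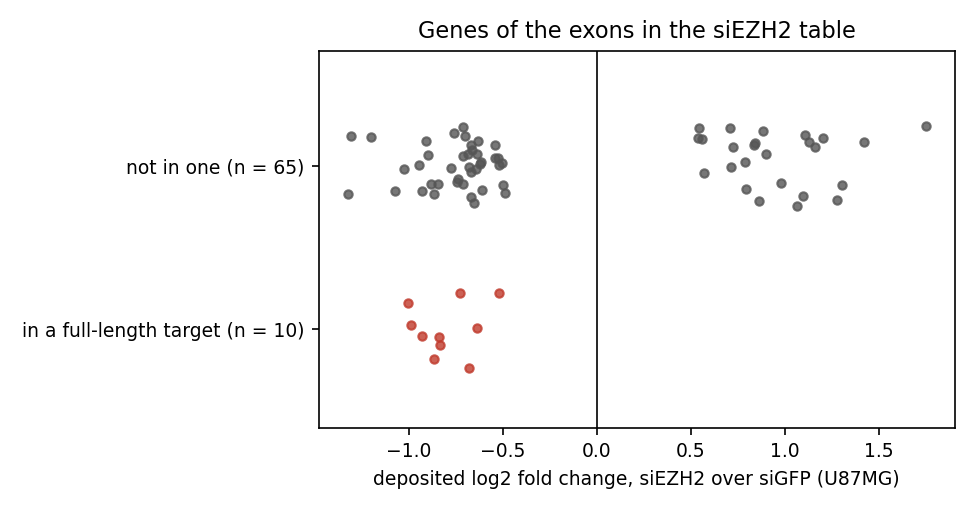
Log2 fold change of the authors' deposited table (siEZH2 over siGFP, U87MG) for the 75 genes of the exons, 10 in a T98G full-length target (red) and 65 not in one (grey); vertical placement within a row only separates the points. The red points run from -1.01 to -0.52, and the grey ones lie on both sides of 0, with 25 higher.

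By function the members spread over many classes, of which 12 lists were counted against the other 1145 T98G target genes. Of the members, 236 were in at least 1 list and 601 in none. Chromatin regulators numbered 18 (2.15% of members, against 3.14% of the other genes). They included SUZ12 and BMI1, core subunits of the Polycomb complexes PRC2 and PRC1, the DNA methyltransferase DNMT3A and the deubiquitinase BAP1; these 4 names were chosen for their roles. AGAT was in 5 of the 18 windows, among them HDAC1 and KDM4A, and 4 were full-length targets (HDAC7, CHD3, KDM5C and HCFC1). The window of SUZ12 (chromosome 17, 30310018 to 30310123) held a match of 3 bases only.

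Growth factor signalling and glioblastoma drivers had 15 members (1.79%, against 1.48%), 5 with AGAT. EGFR, NRAS, JAK2 and SHC1 were without it, while PIK3CA, MAP2K1, STAT3, SMAD2 and PIK3R4 had it. PIK3R2, CIC and JAG1 were full-length targets, and FUBP1 had -0.74 in the authors' deposited table. Extracellular matrix and adhesion had 14 members (1.67%, against 1.75%), 3 with AGAT. In the authors' deposited table ITGA6 and ITGA4 were higher and ITGAV (-0.88), FAT1 (-0.87) and PLOD1 (-0.54) lower, so integrin subunits lay on both sides.

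RNA splicing, processing and translation was the list with the most members, 50 (5.97%, 4.56 to 7.79, against 7.42%, 6.04 to 9.09). AGAT was in 13 of 49 windows, and 7 were full-length targets, among them EIF3B, MARS and AARS2. Lower in the authors' deposited table were 4, CPSF3 (-0.61), SON (-0.54), EIF3B (-0.52) and DDX1 (-0.50), and 0 higher. Ubiquitin ligases and deubiquitinases had 39 members (4.66%, against 4.37%), 11 with AGAT and 6 in full-length targets. TRIM33 (-0.75), USP34 (-0.67) and CUL2 (-0.63) were lower in the authors' deposited table and 0 were higher.

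The remaining lists were small. Small GTPase regulators had 23 members (2.75%, against 2.45%; 7 with AGAT), transporters and pumps 21 (2.51%, against 2.45%; 5 with AGAT), and motor, centrosome and cilium genes 17 (2.03%, against 3.14%; 5 with AGAT). DNA replication and repair had 13 (1.55%, against 1.31%; 2 with AGAT). Cell cycle and chromosome segregation had 13 (1.55%, against 1.40%) with 1 AGAT window, and SMC4 (0.88) and CDC27 (0.54) were higher in the authors' deposited table. Nuclear pore and transport genes also numbered 13 (1.55%, 0.910 to 2.64, against 0.873%, 0.475 to 1.60), 4 of them with AGAT. Zinc finger transcription factors had 5 (0.597%, 0.255 to 1.39, against 1.83%, 1.20 to 2.79): ZNF131, ZNF292, ZNF777, ZNF592 and ZNF14, the last with a 5-base match. The intervals of members and other genes overlap in every one of the 12 lists, for zinc finger genes only between 1.20% and 1.39%. Such an overlap does not exclude a difference, and no interval of a difference was computed for these lists. The other genes include those of exons of 500 bp or more, which the rule leaves out of the members.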

How the data were processed

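The deposited files used were 6 lists of regions in hg19 coordinates. Per the labels, the authors trimmed small RNA reads with cutadapt, aligned them with BWA, counted exons with bedtools, tested exons with DESeq2 and found peaks with pyicoclip. Per the labels, they aligned long RNA and siRNA reads with Tophat, counted genes with featureCounts and used DESeq2. The submitters' processing notes also name CASAVA 1.8. Thresholds, the exon annotation and whether replicates were pooled are not given in the sources used here. Values are a log2 fold change per gene in the authors' deposited siRNA table, and a deposited score per row, which in the T98G list is a signed distance in bases. The deposited score of the intron list was not used.

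The peak middle was taken as the exon middle minus the distance in genome coordinates. The plan had read it along the RNA strand. The genome-coordinate reading was adopted after the list and the sequence had been seen, and the planned reading is kept as an alternative. Exons were annotated with GENCODE release 44 mapped to GRCh37, on the same strand, using Python 3.11.15, pandas 2.3.3, pysam 0.24.0 and statsmodels 0.14.6 for intervals. An overlap needed 1 shared base, and genes were matched by the first symbol of a row. The adapter start comes from general knowledge of the kit. The counting steps were tested on simulated data. No test was run, since no value per library was analysed, and replicate numbers could not be used.

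The members, gene lists, motif and window were chosen with earlier results of these data known. Named genes were the longest adapter matches (10), the 8 highest and 8 lowest fold changes, members in both the full-length list and the siRNA table, small RNA genes, the 3 narrowest, 3 widest and 3 just outside, and up to 6 per gene list; any other gene was chosen after its values were seen. Alternatives changed the width limit, window, motif, sign and strand of the distance, overlap, fold limit, coding limit and pseudogenes. Some items are not reported here.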

Additional observations from a re-analysis of the deposited data

How the results depend on the processing

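Of 43 values under other settings, 36 stayed within the interval of the reported value or within 1.5 times of it and 7 moved. The AGAT difference from T98G-only exons of genes with several called exons, whose interval includes 0 under every setting tried, took both signs, from -0.950 to 2.00 percentage points. All other differences kept their sign. The AGAT share of 25.1% became 7.31% for a start at 11 bases alone, 31.1% for starts from 9 to 17 bases, 13.9% for AGATC and 4.08% with the other sign of the distance. Reading the distance along the RNA strand, as first planned, gave 15.2%; the genome-coordinate reading behind the reported values was adopted after the list and the sequence had been seen. The first 3 follow from the construction of the window or motif, and for the other 2 the cause was not tested. The share higher under siEZH2 became 62.5% at an absolute log2 fold change of at least 1, which leaves 16 genes and at which 73.9% of the whole table was higher, and the coding share became 79.6% where at least 50 percent of the exon had to be coding. The number of exons was 708 under 300 bp and 995 under 1000 bp, and 830 with every joined symbol in a single row. Settings that left out pseudogenes or members in full-length targets were also chosen after seeing the data. No paired analysis was possible because the lists hold no values for single libraries, and for the same reason no library could be left out. Depth is unknown, so an exon missing from the K562 or U87MG list may be below detection there.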
